A study of Mus musculus with 4 samples.

Results

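The data described here are the ATAC-seq peaks around Sall1 in microglia, the resident macrophages of the brain, from WT mice and from mice labelled IRF8KO. Sall1 (ENSMUSG00000031665.7) lies on the minus strand of chromosome 8, at chr8:89027235-89044162 in GRCm38. Every peak in the 4 deposited peak lists that overlapped the gene or the 300 kb on either side of it was taken, which gave 392 of the 676057 deposited peaks. The gene and its window were chosen on measured values of these same libraries, because accessibility there had already been seen to differ between the genotypes. All values of the window are therefore given as a description, with no test.

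Sall1 encodes a zinc-finger transcription factor that acts mainly as a repressor, and its amino-terminal motif recruits the nucleosome remodelling and deacetylase complex NuRD. In the adult brain Sall1 is a marker that separates microglia from other macrophages, and loss of Sall1 costs microglia much of their identity. TGF-beta signals, carried into the nucleus by SMAD proteins, maintain the microglial state in which Sall1 is expressed. IRF8 is a transcription factor of the myeloid lineage that binds DNA together with the ETS factor PU.1 at composite ETS-IRF elements.

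All mice were C57BL/6, untreated and 3 months old, and microglia were isolated without enzymes and sorted by flow cytometry before their nuclei were tagmented with Tn5 transposase. WT and IRF8KO were each represented by 2 libraries, numbered 1 and 2. The labels do not describe the IRF8KO allele and do not say whether the 2 libraries of a genotype came from separate mice, so the spread between them may be technical. The 8 microglial marker genes examined, among them Cx3cr1, P2ry12, Tmem119 and Csf1r, had a strict promoter peak in each of the 4 libraries. The share of all genes with such promoters was not computed. In promoter height per tag, both WT libraries stood above both IRF8KO libraries at 4 of the 8, and the converse held at 1, Itgam. Over all protein-coding genes these orders held for 25.8% and 3.41%.

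A peak was called strict at a deposited −log10 q of 2 or more and weak below it. Its height, the pileup, is the number of extended Tn5 cut sites stacked at the summit, and it is given here per 1000000 tags of the library, abbreviated PPM. Tag totals came to 78793572 and 66224648 for the IRF8KO libraries and to 46948938 and 48896408 for the WT libraries, so IRF8KO was sequenced more deeply. The lowest pileup listed anywhere was 0.128 and 0.123 PPM for the WT libraries (replicate 1 first, as everywhere below), against 0.102 and 0.106 for IRF8KO. Depth, a tag size of 50 bp in WT against 49 bp in IRF8KO, and genotype cannot be told apart in these libraries. In bulk material, fewer cells with an open site and less opening per cell also cannot be told apart.

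The sequences at the strongest WT regions are printed first, as the DNA that the values below belong to. The promoter was open in WT at 2 adjoining sites. Their WT summits lie within the first intron of the GENCODE model, just upstream of additional RefSeq start sites at 89043512 and 89042862, and the site nearer the annotated start reaches into the first, non-coding exon. The following stretches, from RefSeq in GRCm38 on the minus strand, hold the 250 bases before each of those start sites, with CpG dinucleotides in capitals. They cover chr8:89043513-89043762 and chr8:89042863-89043112.
Before start site 89043512: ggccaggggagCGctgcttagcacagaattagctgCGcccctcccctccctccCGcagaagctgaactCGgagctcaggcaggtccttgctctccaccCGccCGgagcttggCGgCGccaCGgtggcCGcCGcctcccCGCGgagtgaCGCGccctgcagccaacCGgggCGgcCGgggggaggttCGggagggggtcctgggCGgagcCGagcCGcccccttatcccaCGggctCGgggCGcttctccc
Before start site 89042862: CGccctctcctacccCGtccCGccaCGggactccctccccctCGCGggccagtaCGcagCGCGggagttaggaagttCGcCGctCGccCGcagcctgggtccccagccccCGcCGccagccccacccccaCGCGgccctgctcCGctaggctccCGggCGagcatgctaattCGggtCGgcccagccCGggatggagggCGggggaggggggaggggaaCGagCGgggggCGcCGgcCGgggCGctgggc
Both stretches are CpG-rich. The first had 25 CpG dinucleotides and a GC content of 74.4%, and the second had 30 and 78.4%, against medians of 6 and 52.4% over 32851 RefSeq promoters for the same 250 bases.

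The next sequences are the 201 bases centred on summits of the 3 tallest distal WT regions of the window and, for its motif matches, of a region 11.9 kb upstream. They are read on the plus strand of GRCm38, and capitals mark matches to the motifs searched. IRF8 can bind at ETS-IRF elements, of which 1 of the 3 tallest regions holds a match. The match in the region 11.9 kb upstream is on the minus strand, so the capitals there show its reverse complement.
Region 129 kb downstream of the start site, chr8:88914689-88914889: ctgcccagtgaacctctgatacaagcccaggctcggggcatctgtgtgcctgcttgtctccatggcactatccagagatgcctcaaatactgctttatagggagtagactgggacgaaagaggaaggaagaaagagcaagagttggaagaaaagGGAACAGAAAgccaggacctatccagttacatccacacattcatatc
Region 11.9 kb upstream, chr8:89055931-89056131: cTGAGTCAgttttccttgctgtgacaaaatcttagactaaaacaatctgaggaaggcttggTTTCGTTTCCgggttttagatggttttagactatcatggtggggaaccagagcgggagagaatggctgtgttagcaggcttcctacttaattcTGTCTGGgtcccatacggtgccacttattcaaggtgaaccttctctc
Region 90.5 kb upstream, chr8:89134555-89134755: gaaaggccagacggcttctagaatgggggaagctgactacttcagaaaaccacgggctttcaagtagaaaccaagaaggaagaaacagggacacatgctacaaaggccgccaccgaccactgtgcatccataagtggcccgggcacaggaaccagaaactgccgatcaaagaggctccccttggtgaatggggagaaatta
Region 138 kb upstream, chr8:89182457-89182657: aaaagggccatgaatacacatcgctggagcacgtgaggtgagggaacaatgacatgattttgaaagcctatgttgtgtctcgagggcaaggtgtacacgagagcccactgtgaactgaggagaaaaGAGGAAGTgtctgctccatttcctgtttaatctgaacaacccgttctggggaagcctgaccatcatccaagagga
In the first, the capitals mark an ETS-IRF element 59 bp from the summit. In the second, they mark an AP-1 site, an ETS-IRF element and a SMAD site. The third held none of the 9 motifs, and the fourth held a PU.1 site.

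Within 500 kb upstream of the start site, the most accessible distal DNA in WT lay just past the 300-kb limit of the window. Its 2 tallest summits are added for that reason, and DNA farther upstream was not examined. Capitals again mark motif matches on either strand.
Region 349 kb upstream, chr8:89392814-89393014: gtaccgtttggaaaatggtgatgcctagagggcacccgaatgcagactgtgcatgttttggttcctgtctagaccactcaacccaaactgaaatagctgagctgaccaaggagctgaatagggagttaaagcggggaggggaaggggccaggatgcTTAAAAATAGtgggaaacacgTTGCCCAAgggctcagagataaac
Region 360 kb upstream, chr8:89404350-89404550: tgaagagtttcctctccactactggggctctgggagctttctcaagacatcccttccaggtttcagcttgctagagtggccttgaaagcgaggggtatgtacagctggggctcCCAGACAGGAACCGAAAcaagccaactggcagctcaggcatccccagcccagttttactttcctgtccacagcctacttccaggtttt
The first held a MEF2 and a CEBP match. The second held a SMAD match on the minus strand and an ETS-IRF match on the plus strand, with no base between them.

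In the Sall1 window, WT libraries had more and taller strict peaks than IRF8KO libraries, and the IRF8KO libraries had more weak peaks. The WT lists held 45 and 42 strict peaks and the IRF8KO lists 20 and 23, or 43.5 ± 2.12 against 21.5 ± 2.12 (SD, n = 2). Of weak peaks the WT lists held 26 and 47 and the IRF8KO lists 98 and 91. The genotypes did not overlap in either count, and the order of the genotypes was opposite in the 2 counts. Separation in strict peaks was not particular to the window. Genome-wide, the WT lists hold 97473 and 98863 strict peaks, beside 83996 and 95921 for the IRF8KO lists. For distinct peaks of any strength the genotypes overlapped genome-wide, at 143525 and 177972 for WT beside 180970 and 173590 for IRF8KO.

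The summed pileup of the strict peaks was 25.7 and 19.6 PPM in WT and 4.14 and 4.64 in IRF8KO. The means were 22.6 ± 4.27 and 4.39 ± 0.352 (SD, n = 2), a difference of −18.3 and a 5.16-fold ratio. Over all deposited peaks, weak ones included, the sums were 30.2 and 27.1 PPM in WT and 16.4 and 16.8 in IRF8KO, a ratio of 1.73. The strict peaks covered 10.96 and 9.69 kb in WT against 2.94 and 3.45 kb in IRF8KO, so the covered length differed less, by 3.23-fold, than the summed height. The tallest strict peak reached 2.17 and 2.05 PPM in WT and 0.749 and 0.589 in IRF8KO. Per peak, the median strict pileup was 0.362 and 0.297 PPM in WT against 0.165 and 0.181 in IRF8KO.

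**Figure D1:**
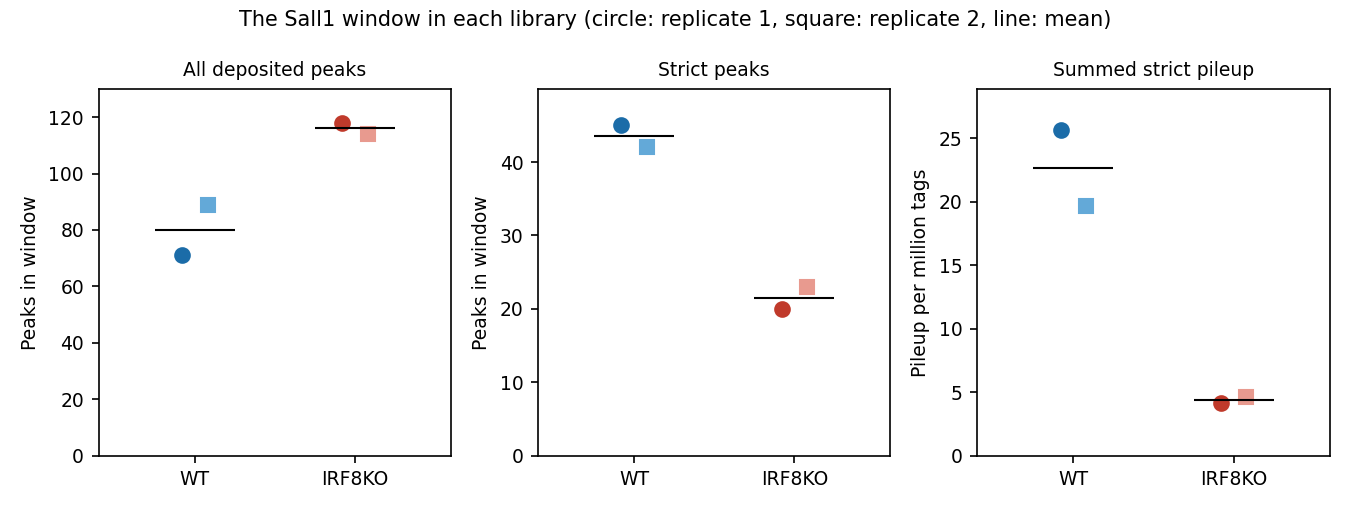
Number of deposited peaks, number of strict peaks and summed strict pileup per 1000000 tags in the Sall1 window (vertical axes) for the WT and IRF8KO libraries, with circles for replicate 1, squares for replicate 2 and lines for the means. The IRF8KO libraries have more deposited peaks, 118 and 114 against 71 and 89, but fewer strict ones, 20 and 23 against 45 and 42.

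Most of the weak peaks were private to 1 library. Merging all 392 peaks gave 292 intervals, of which 224 came from 1 library, 51 from 2, 11 from 3 and 6 from all 4. No strict peak lay in 208 of these intervals. In IRF8KO, 89 of 118 and 84 of 114 deposited peaks overlapped no peak of another library, against 19 of 71 and 32 of 89 in WT.

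**Figure D2:**
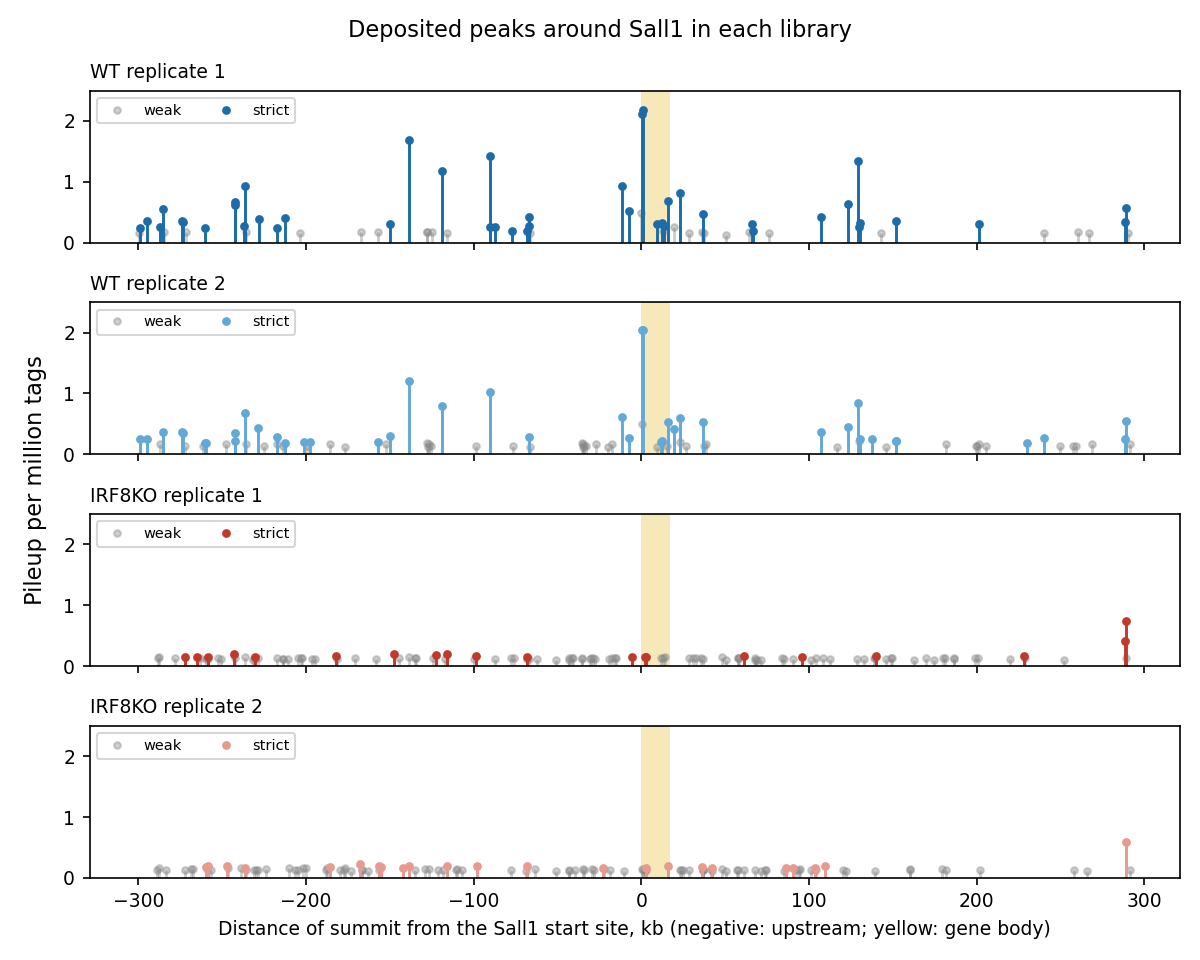
Pileup per 1000000 tags (vertical axes) of each deposited peak against the distance of its summit from the Sall1 start site in kb (horizontal axis, negative upstream), 1 panel per library, with strict peaks in colour, weak peaks in grey and the gene body in yellow. WT libraries show tall strict peaks at the promoter and across both flanks, while the tallest IRF8KO peak, at 0.749 and 0.589 PPM, lies at the far downstream edge.

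Merging the strict peaks gave 84 regions, out of 155546 in the genome. Of these, 31 were strict in both WT libraries, 19 in 1 WT library and no IRF8KO library, 33 in IRF8KO only, and 1 in 1 WT and both IRF8KO libraries. The 33 seen as strict only in IRF8KO were low, at 0.227 PPM or less, and 32 of them were strict in 1 of the 2 libraries. Among the 33, 14 were listed in IRF8KO replicate 1 alone and 15 in replicate 2 alone, with no peak of any strength elsewhere.

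A region was called WT-specific when it was strict in both WT libraries and no peak of any strength was listed in either IRF8KO library, and IRF8KO-specific in the converse case. In the window 18 of 84 regions (21.4%) were WT-specific, beside 5.58% of all regions of the genome. Without WT replicate 1 the count was 27 of 75 regions, and without WT replicate 2 it was 29 of 77. The rule then asks for a strict peak in the remaining WT library only, so the count cannot fall. The 5.58% does not apply to that looser rule. None of the 84 was IRF8KO-specific, beside 3.86% genome-wide. Both WT libraries stood above both IRF8KO libraries in 38 of 84 regions (45.2%), beside 26.5% of all regions. The converse order was found in 3 of 84 (3.57%), beside 12.9%. Since the window was chosen on this contrast, nothing further is read from these shares.

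Among the 31 regions strict in both WT libraries, 30 had both WT values above both IRF8KO values (96.8%), beside 52% of the 68616 such regions in the genome. In 18 of the 31 (58.1%) no peak was listed in IRF8KO, beside 12.6%, and 1 of 31 (3.23%) was strict in all 4 libraries, beside 70.3%. Of the other 12, 7 had a peak in 1 IRF8KO library and 5 had a peak in both. With the lowest listed pileup of a library put in place of each missing peak, the median ratio of WT to IRF8KO was 3.75 in these 31 regions and 1.41 in all 68616. The 18 WT-specific regions had a median ratio of 3.64, close to the 3.53 of all 8673 WT-specific regions.

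**Figure D3:**
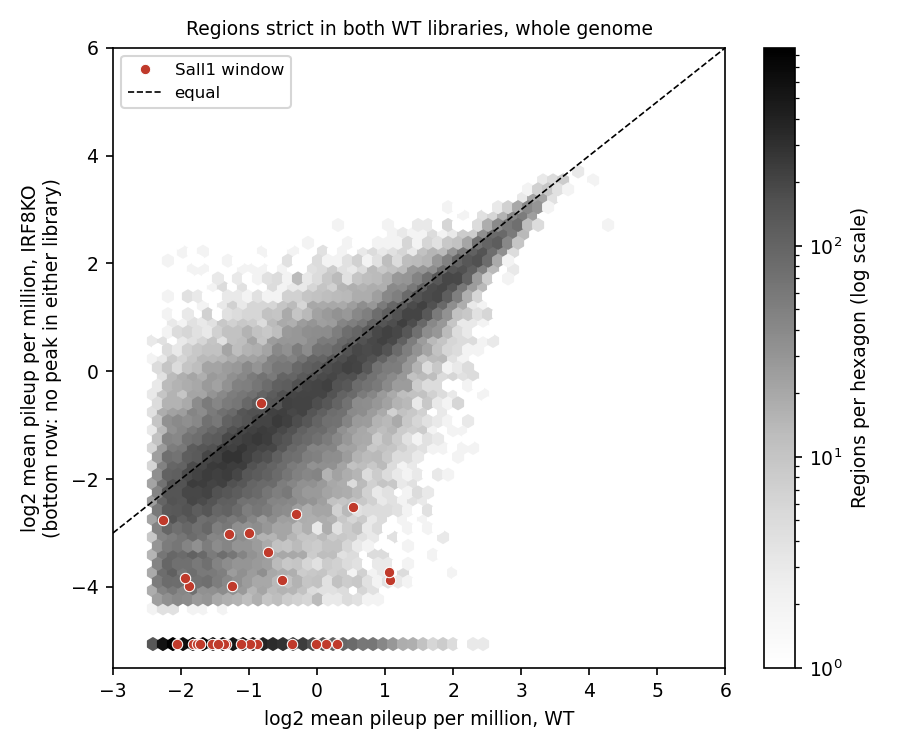
Mean pileup per 1000000 tags in WT (horizontal axis, log2) against IRF8KO (vertical axis, log2) for the 68616 regions strict in both WT libraries, with hexagons shaded by the number of regions on a log scale and the 31 regions of the Sall1 window in red. All red points except 1 lie below the dashed line of equal values, and 18 lie in the bottom row, which holds regions with no IRF8KO peak.

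The Sall1 promoter was among the tallest promoter peaks found in WT and not strict in IRF8KO. The site before the innermost start site (chr8:89042652-89043443) had a pileup of 2.17 and 2.05 PPM in WT replicates 1 and 2. IRF8KO replicate 1 had no peak there, and IRF8KO replicate 2 had a weak one of 0.136. The adjoining site (chr8:89043521-89044156) read 2.11 and 2.05 in WT, no peak in IRF8KO replicate 1 and a weak peak of 0.151 in replicate 2.

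The WT libraries were close to each other at both sites, and neither overlapped the IRF8KO libraries. In counts, the WT summits rested on 99 to 102 stacked cut sites, and the weak IRF8KO peaks on 9 and 10. The WT summits lay 231 and 236 bp upstream of start site 89042862 and 146 and 144 bp upstream of start site 89043512, inside the CpG-rich sequences printed above. The weak IRF8KO summits, at 89043294 and 89043908, lay elsewhere within the same sites. With the lowest listed pileup in place of the missing peak, the WT to IRF8KO ratios of the 2 sites were 17.8 and 16.4.

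A strict promoter peak, one within 1 kb of an annotated start site, was present in both WT and neither IRF8KO library for 295 of 21755 protein-coding genes, or 1.36%, and the converse held for 0.86%. Ranked by the lower WT summit height, Sall1 took place 5 of the 295, behind Rasgrf2, Stxbp6, Phkg1 and Gm6217. At promoters in general, both WT libraries stood above both IRF8KO libraries in 25.8% of genes and below them in 3.41%.

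Within the gene body, 4 regions were strict in both WT libraries, the 2 promoter sites and 2 in coding exons near the other end of the gene. The exonic region at chr8:89028299-89028513 read 0.682 and 0.532 PPM in WT, with no peak in IRF8KO replicate 1 and a strict peak of 0.196 in replicate 2. The second, at chr8:89031540-89031855, read 0.319 and 0.225 in WT and 0.127 in IRF8KO replicate 1, as a weak peak, and was not listed in replicate 2. Neither exonic region was WT-specific, and in both the 2 genotypes did not overlap.

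The other 27 of the 31 regions were intergenic. In all, 19 lay upstream of the start site and 12 within the gene or downstream. The tallest distal region of the window, 138 kb upstream (chr8:89182434-89182888), read 1.68 and 1.21 PPM in WT. In IRF8KO it read 0.152 and 0.196, where it was weak and strict respectively. The region 90.5 kb upstream (chr8:89134220-89134871) read 1.43 and 1.02 in WT, and no peak was listed in IRF8KO. The region 119 kb upstream (chr8:89163115-89163525) read 1.17 and 0.798 in WT, again with no IRF8KO peak.

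These 3 upstream regions were the tallest ones upstream in WT within the window. Downstream of the gene, the tallest region of the window lay 129 kb from the start site (chr8:88914694-88914987). It had 1.34 and 0.839 PPM in WT and no IRF8KO peak. The region 11.9 kb upstream (chr8:89055889-89056132) read 0.937 and 0.614 in WT and had no IRF8KO peak. A region 237 kb upstream read 0.937 and 0.675 in WT and 0.152 and 0.166 in IRF8KO, and one 22.8 kb downstream read 0.809 and 0.593 in WT with 0.136 in IRF8KO replicate 2 alone.

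WT replicate 1 was above WT replicate 2 in 24 of the 31 regions, and the ratio of replicate 2 to replicate 1 ran from 0.364 to 1.22 with a median of 0.720. At the promoter the WT replicates differed by less than at most distal regions. Outside the region strict in all 4 libraries, the highest IRF8KO value in the 31 was 0.196 PPM and the lowest WT value was 0.184. The smallest contrast was 260 kb upstream, with 0.234 and 0.184 in WT, 0.114 and 0.181 in IRF8KO and a ratio of 1.42.

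The remaining WT-specific regions were lower. The one 295 kb upstream (chr8:89338714-89338922), which held an ETS-IRF match 4 bp from its summit, read 0.362 and 0.245 PPM in WT. The 18 WT-specific regions lay 7 at 200 to 300 kb upstream, 2 at 100 to 200 kb upstream, 4 within 100 kb upstream and 5 at 100 to 200 kb downstream. None lay from the start site to 100 kb downstream, gene included, where each of the 6 regions strict in both WT libraries had a peak in at least 1 IRF8KO library.

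**Figure D4:**
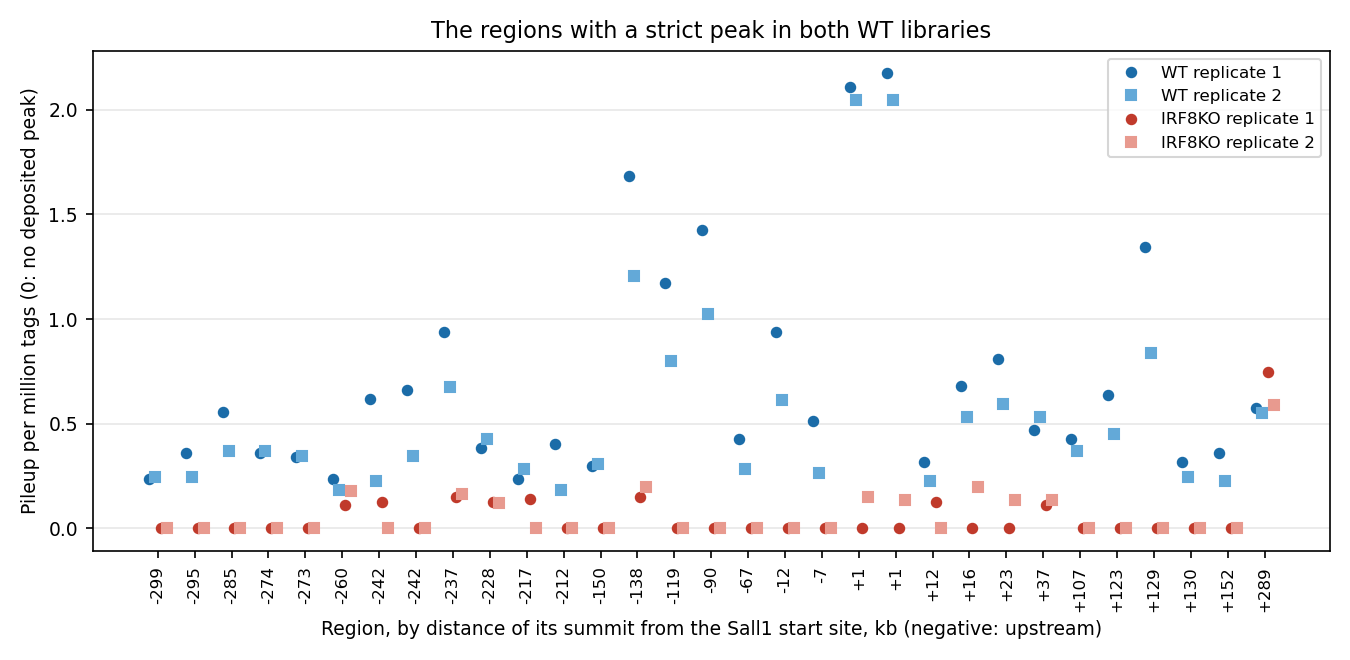
Pileup per 1000000 tags (vertical axis, 0 where no peak was listed) in each library for the 31 regions strict in both WT libraries, ordered along the horizontal axis by the distance of the summit from the Sall1 start site in kb. Both WT values exceed both IRF8KO values in all but the last region, 289 kb downstream.

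The 1 exception lay 289 kb downstream of the start site (chr8:88755207-88755686) and 3.26 kb past the end of Cyld, the gene of a deubiquitinase, which is the only other protein-coding gene reaching into the window. It read 0.575 and 0.552 PPM in WT and 0.749 and 0.589 in IRF8KO, so both IRF8KO libraries stood above both WT libraries by tags, though not after the scaling to shared regions described below. It was the tallest IRF8KO peak of the window and the only region strict in all 4 libraries. The Cyld promoter, 30.2 kb outside the window, read 5.73 and 4.93 in WT and 3.36 and 6.39 in IRF8KO, so there the genotypes overlapped.

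Apart from that region, the strict IRF8KO peaks were near the detection limit. Replicate 1 had 18 of them with 12 to 16 stacked cut sites (0.152 to 0.203 PPM), and replicate 2 had 22 with 11 to 15 (0.166 to 0.227). A WT peak overlapped 2 of the 18 and 7 of the 22, and a peak of the other IRF8KO library overlapped 3 and 5. After the Cyld-side region, the regions with the highest IRF8KO means included one 116 kb upstream, at 0.203 and 0.196 in IRF8KO, a weak 0.149 in WT replicate 1 and no peak in WT replicate 2. Another lay 68.2 kb upstream, with 0.152 and 0.196 in IRF8KO and 0.192 in WT replicate 1 alone. The threshold between weak and strict fell between a WT replicate 2 peak with −log10 q of 1.98 and an IRF8KO replicate 2 peak with 2.03.

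For the missing peaks, the depth of the IRF8KO lists can be given beside the WT values. If each of the 18 WT-specific regions had the lower of its WT values PPM, it would stack 14.5 to 80.6 cut sites in IRF8KO replicate 1 and 12.2 to 67.7 in replicate 2. The lowest pileups those lists hold are 8 and 7, and their lowest strict pileups in the window are 12 and 11. The stacked counts rest on tag totals alone. In median pileup at regions strict in all 4 libraries, IRF8KO replicate 1 stood at 0.705 of the mean of the 4 libraries, and replicate 2 at 1.11. With that factor the counts of replicate 1 would be lower and nearer to those limits. A site can also go unlisted where the local background is raised, and the local background at sites without a listed peak is not known from the lists. At the listed IRF8KO peaks of the window it ran from 3.08 to 4.49 cut sites in replicate 1 and from 2.59 to 3.61 in replicate 2.

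Signal in IRF8KO replicate 1 was lower than in the other libraries at shared regions of the genome. Over the 48262 regions strict in all 4 libraries, the median pileup was 0.958 and 0.777 PPM in WT and 0.558 and 0.876 in IRF8KO, a difference of 0.28 (log2) between the genotype means. It came from IRF8KO replicate 1, since IRF8KO replicate 2 lay between the WT libraries. When each library was scaled to these regions, both WT libraries remained above both IRF8KO libraries in 29 of the 31 regions, but the order at the Cyld-side region was lost. There the scaled values were 0.475 and 0.563 in WT and 1.06 and 0.533 in IRF8KO, so the genotypes overlapped. The share over all regions strict in both WT libraries was not computed after this scaling, so nothing further is read from the 29 of 31.

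Regions closer than 12.5 kb were stitched into clusters, which gave 13 from the 31 regions. The largest ran from 12.0 kb upstream to 23.0 kb downstream of the start site and joined 7 regions over 34.96 kb, promoter included. Its strict peaks summed to 8.12 and 6.93 PPM in WT and 0.457 and 0.362 in IRF8KO. A cluster of 6 regions, 212 to 243 kb upstream, summed to 3.51 and 2.15 in WT and 0.152 and 0.166 in IRF8KO.

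Of the 13 clusters, 8 were single regions, and an even or random placement of regions was not compared. The cluster of 5 regions 273 to 299 kb upstream, summed to 2.11 and 1.57 in WT and held no strict IRF8KO peak. The cluster of 3 regions 123 to 130 kb downstream, which holds the ETS-IRF match printed above, summed to 2.56 and 1.53 in WT and also held no strict IRF8KO peak.

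The upstream limit of 300 kb cut through this pattern. Just inside it, a region 299 kb upstream read 0.234 and 0.245 PPM in WT, and just outside it a region 312 kb upstream read 0.341 and 0.205, both with no IRF8KO peak. From 300 to 400 kb upstream, the strict peaks summed to 12.4 and 8.43 PPM in WT and 0.660 and 0.332 in IRF8KO. That is more WT signal than in any 100-kb bin of the window, the one with the promoter included, where the sums were 7.63 and 6.59 in WT and 0.622 and 1.04 in IRF8KO.

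Of 18 regions in that outer bin, 7 were strict in both WT libraries and 6 were WT-specific. The region 349 kb upstream (chr8:89392719-89393144) read 4.28 and 3.13 PPM in WT, 3.71 ± 0.815 (SD, n = 2), and no peak was listed in IRF8KO. At its lower WT value it would stack, by tag totals alone, 247 and 207 cut sites in the IRF8KO libraries. The region 360 kb upstream (chr8:89404170-89404649) read 3.13 and 2.58 in WT, 2.85 ± 0.392 (SD, n = 2), also with no IRF8KO peak.

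Both regions stood above the Sall1 promoter itself in each WT library. Ranked by the lower WT value among all 8673 WT-specific regions of the genome they came at place 17 and place 34, while the tallest WT-specific region inside the window, 90.5 kb upstream, came at place 512. Between them, a region 353 kb upstream read 1.70 and 1.06 in WT, with a weak 0.151 in IRF8KO replicate 2. All of these lie in the 1203 kb between the start of Sall1 and Tox3, the next protein-coding gene upstream. Whether they act on Sall1 was not tested.

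On the other side of Sall1 lies Cyld. From 300 to 400 kb downstream, 8 of 13 regions were strict in all 4 libraries 1 was WT-specific, and the strict peaks summed to 27.7 and 20.5 PPM in WT and 14.1 and 22.6 in IRF8KO. That bin holds most of Cyld and its promoter. From 400 to 500 kb downstream, 7 of 21 regions were strict in all 4 libraries and 3 were WT-specific, with sums of 15.6 and 12.1 in WT and 7.45 and 12.4 in IRF8KO. In both bins the sums of the genotypes overlapped.

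A search for 9 motifs covered 100 bp on either side of each summit and both strands, with N standing for any base. The ETS-IRF element GGAANNGAAA was found in 3 of the 31 regions strict in both WT libraries (9.68%), beside 6.42% of all 68616 such regions and 4.30% of all regions. They were the regions 129 kb downstream, 11.9 kb upstream and 295 kb upstream, and none of them had an IRF8KO peak. The interferon response element GAAANNGAAA was in 1 region (3.23%), 130 kb downstream, beside 3.80%.

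PU.1 sites (GAGGAAGT) were in 3 of the 31 (9.68%), beside 10.7%, and SMAD sites (TGTCTGG) in 2 (6.45%), beside 4.82%. The AP-1 site TGANTCA was in 2 (6.45%), beside 7.49%. The CEBP motif TTGCNNAA was in 1 (3.23%), beside 9.05%, the RUNX motif TGTGGTT in 1, beside 5.48%, the MAF motif TGCTGAC in 1, beside 5.20%, and MEF2 in none, beside 1.92%. A match is a description of the letters and not a bound site, and with 31 regions these shares rest on 0 to 3 regions each. None of the 31 was mostly repeat sequence, and the GC content around their summits ran from 31.8% to 73.6%, the promoter site before start site 89043512 being the highest.

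Against other genes, the Sall1 window held many WT-specific regions. Over the same span of 300 kb on either side, 21755 protein-coding genes had a median of 3 WT-specific regions, and Sall1, with 18, shared sixth place with Cacna1e and Cdh23. Only the windows of Gm20388 (35), Magi1 (24), Prex1 (22), Gm37240 (20) and Nav2 (19) held more, and windows of neighbouring genes overlap. Of these, Magi1 alone had no IRF8KO-specific region, as Sall1 did, and a WT to IRF8KO ratio of 3.31. Other measures of the same span ranked Sall1 lower. By the WT-specific share of its regions (21.4%) it shared place 180, beside a median of 4.65%. By regions with both WT libraries above both IRF8KO libraries (38) it shared place 1788, beside a median of 17.

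In the ratio of summed strict pileup over that span Sall1 stood at 5.07, place 91, beside a median of 1.26. Over the gene and 10 kb on either side, the ratio was 13.4, place 38, beside a median of 1.197. Only 1 WT-specific region lay within those 10 kb, and 22.1% of genes had at least 1. These ratios add 0.1 to both sums, so they are below the plain ones.

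The genes with the pattern most like Sall1 were sought among 11354 genes with at least 5 regions in the gene and 10 kb on either side. The measure was the Euclidean distance between log2 summed strict PPM, with 1 added, over the 4 libraries after each gene's mean was removed. The nearest were Eva1a (0.175), Trpc4 (0.193), Ildr2 (0.203), Elavl4 (0.274) and Carmil1 (0.284), beside a median distance of 2.19 over all these genes. Sall1 summed to 7.18 and 6.32 in WT and 0.457 and 0.362 in IRF8KO. Eva1a summed to 7.03 and 6.11 in WT and 0.508 and 0.544 in IRF8KO, and Trpc4 to 6.24 and 4.54 against 0.305 and 0.166. With 4 libraries the likeness is mainly that of a large WT to IRF8KO ratio.

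In WT, the promoters of the other SALL family members were less accessible than that of Sall1, while in IRF8KO the promoters of Sall3 and, in replicate 2, Sall2 were the more accessible ones. Sall3, a close paralog of Sall1, had a promoter pileup of 1.06 and 0.716 PPM in WT and 0.546 and 0.966 in IRF8KO, and Sall2 had 0.511 in WT replicate 1 and 0.272 in IRF8KO replicate 2 alone. Sall4, known from early embryonic cells, had no strict promoter peak in any library. Of the 4 genes, Sall1 was the only one with both WT promoters above both IRF8KO promoters, by tags (25.8% of all genes) and after scaling to shared regions (18%), and it is the gene chosen for this contrast. Sall1, Sall2 and Sall3 each had 1 WT-specific region within 10 kb, beside 22.1% of all genes with at least 1.

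The TGF-beta pathway was represented by 20 genes, whose promoters were strict in 20 and 20 of 20 in WT and 19 and 19 in IRF8KO. The share of all genes with a strict promoter was not computed, so nothing is read from these counts. Both WT libraries stood above both IRF8KO libraries at 7 of the 20 promoters, beside 25.8% of all genes, and the converse held at none, beside 3.41%. After scaling to shared regions the counts were 6 and 2, the last being Tgfbr2 and Skil, beside 18% and 14.5% of all genes scaled in the same way. Among ligands and their activators, the promoter of Itgb8, whose integrin releases active TGF-beta, read 0.809 and 0.798 PPM in WT and was not strict in IRF8KO. Tgfb1, the main ligand, read 4.30 and 4.21 in WT and 3.16 and 4.70 in IRF8KO, so the genotypes overlapped.

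Among receptors, Acvrl1, a type I receptor best known in endothelium, read 2.15 and 2.25 in WT and 0.216 and 0.287 in IRF8KO. Tgfbr1 read 5.602 and 4.77 against 3.41 and 4.73, and Tgfbr2 2.73 and 1.80 against 1.88 and 2.84. The promoters of the core receptor pair thus differed little or overlapped, and those of Itgb8 and Acvrl1 were far apart. Among signal carriers, Smad3 read 3.73 and 2.37 in WT and 2.35 and 2.72 in IRF8KO, and Smad4 read 1.87 and 1.78 against 1.71 and 1.98, with the genotypes overlapping in both.

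**Figure D5:**
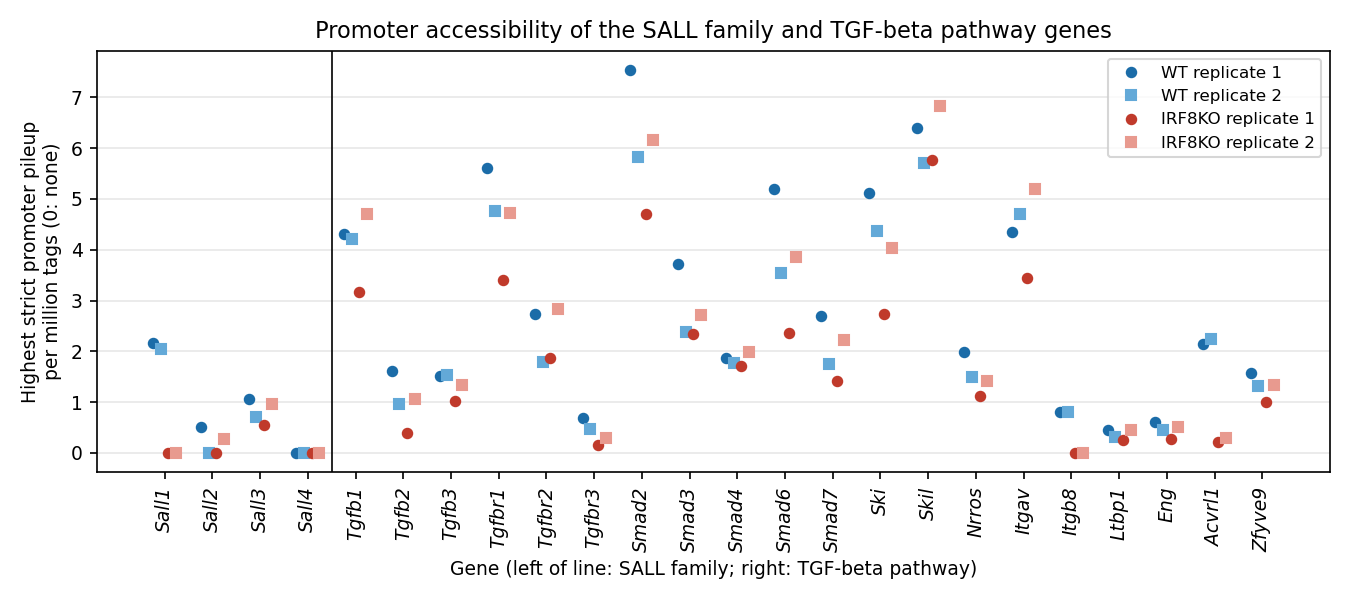
Height of the tallest strict promoter peak in pileup per 1000000 tags (vertical axis, 0 where none) for the 4 SALL family genes and 20 TGF-beta pathway genes (horizontal axis) in each library. Sall1 and Itgb8 have no strict promoter peak in IRF8KO, and Acvrl1 is at 0.216 and 0.287 there, while most other pathway genes overlap between the genotypes.

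The 13 NuRD genes, partners of the SALL repressor motif, had strict promoters in all 4 libraries. For this list and the next, the share of all genes with such promoters was not computed, so nothing is read from that count. Both WT libraries were above at 4 of the 13 NuRD promoters and below at 1 by tags, beside 25.8% and 3.41% of all genes. After scaling they were above at 2 and below at 5, beside 18% and 14.5%. Of 13 genes of the homeostatic microglial program, 12 had strict promoters in all 4 libraries, and both WT libraries stood above at 5 of the 13, P2ry12, P2ry13, Cx3cr1, Sparc and Selplg. The converse held for Olfml3, and after scaling the counts were 8 and 2. The shares over all genes are those given for the NuRD list. P2ry12, a purinergic receptor that guides microglial processes, read 3.73 and 2.37 in WT and 0.749 and 1.39 in IRF8KO, a smaller contrast than at the Sall1 promoter in these libraries.

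Markers of other cells moved with genotype at some genes. Of 5 border macrophage genes, Mrc1, Pf4 and Cd163 were higher in both IRF8KO libraries, by tags (3.41% of all genes) and after scaling (14.5% of all genes). The summed promoter pileup of the 5 genes, to which F13a1 added in replicate 2 of each genotype, was 0.788 and 0.920 PPM in WT and 2.39 and 4.30 in IRF8KO. Cd163 had a strict promoter in IRF8KO only, while Lyve1 had none in any library. Of 5 endothelial genes, Cdh5 and Kdr were higher in both WT libraries, by tags (25.8% of all genes) and after scaling (18%), and the list summed to 7.69 and 6.26 in WT and 1.56 and 2.30 in IRF8KO. Pecam1 read 0.618 and 0.573 in WT and 0.533 and 0.876 in IRF8KO, so the genotypes overlapped by tags, and after scaling both IRF8KO libraries were the higher ones. Cldn5, a defining endothelial gene, was strict in WT replicate 1 alone, at 0.256, and Tek in none.

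Oligodendrocyte genes summed to 2.64 and 2.35 in WT and 0.647 and 1.54 in IRF8KO over 6 genes, of which Mog, Olig1 and Olig2 were higher in both WT libraries by tags and after scaling. Astrocyte genes summed to 3.22 and 2.15 against 2.07 and 3.84 over 7, with Aldh1l1 and Gja1 higher in both IRF8KO libraries by tags and after scaling. Gfap was higher in both WT libraries by tags alone and Slc1a3 after scaling alone, and the shares over all genes are those just given. Neuronal genes summed to 0.426 and 1.12 against 0.571 and 0.604 over 4, and neutrophil genes to 1.19 and 0.491 against 0.178 and 0.619 over 6, with Snap25 and Ltf higher in both WT libraries by tags and after scaling. S100a8, a neutrophil gene, was higher in both IRF8KO libraries after scaling alone. The T cell gene Cd3d read 0.873 and 1.084 in WT against 3.44 and 3.44 in IRF8KO, and Ly6c2 and Ccr2, the monocyte genes, had no strict promoter. The part of other cells in the Sall1 values was not tested.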

How the data were processed

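The data are ATAC-seq peak lists of 4 libraries of sorted microglia, 2 WT and 2 IRF8KO, grouped by the labels. Per the submitters' processing notes, Bowtie2, MACS2, deepTools and bcl2fastq were used with mm10, which is GRCm38. No peak ran past a GRCm38 chromosome end. Peak calling was done by the authors library by library, per the file headers with MACS 2.1.1.20160309, at a p cutoff of 0.01, with an effective genome size of 1.87e+09, a shift of -37 bp, an extension of 73 bp and a local background of 10 kb. The deposited pileup is a signal without depth scaling, and the fold enrichment the authors deposited is a ratio to the local background. The deposited p-values and q-values are −log10 values, and the q column held values although the header states that q was not calculated.

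Peaks were reduced to distinct intervals with their best summit, and pileup was scaled to 1000000 tags by the header's tag number. Strict peaks (−log10 q of 2 or more) were joined across libraries into regions. Overlap of 1 bp with a peak put a region in a library, and a missing peak counted as 0 for ordering. The window, the members and all gene lists were chosen with earlier results of these data known. Regions named were the Sall1 promoter, every WT-specific and IRF8KO-specific region, and the 5 of highest mean pileup in WT and in IRF8KO. The other regions named, and those past 300 kb, were picked after their values were seen. Genes came from GENCODE M21, and promoter sequences from RefSeq GRCm38.p6. Python 3.11.15, numpy 2.4.6 and pysam 0.24.0 were used, and the code was tested on simulated data. With 2 libraries per genotype and a locus chosen on its contrast, no test was run. Heights in stacked cut sites carry counting error as well as the spread given, and the lowest pileup each list holds was taken as the floor for a missing peak. A summary of the B or T cell markers is not reported here. Other windows, thresholds, scalings and left-out libraries were tried as alternatives.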

Additional observations from a re-analysis of the deposited data

How the results depend on the processing

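The differences in summed pileup and in promoter pileup kept their sign in each alternative run. The difference in strict peaks (−22, IRF8KO minus WT), turned to 36 when all deposited peaks were counted. That setting gave 29 WT-specific regions in place of 18. With windows of 100, 200 and 500 kb on each side, the difference in strict peaks was −7.5, −11.5 and −38, and WT-specific regions numbered 5, 11 and 29. The summed pileup differed by −9.31, −13.8 and −38.7 PPM (−18.3 at 300 kb), and both WT libraries stood above in 14, 24 and 60 regions (38 at 300 kb). At −log10 q of 5, the difference in strict peaks was −25.5, and WT-specific regions numbered 12 in place of 18. Scaled to regions strict in all 4 libraries, the promoter difference was −1.87 PPM in place of −2.03. With fold enrichment in place of pileup, the summed difference was −218 and the promoter difference −6.99, in fold units. With all summits summed, the pileup difference was −25.3. Leaving out 1 library at a time gave 21 to 29 WT-specific regions, the most without WT replicate 2. The rule is looser with a library left out, so these counts could not fall below 18. The region 68.2 kb upstream, higher in IRF8KO by 0.0785, ranged from −0.0174 to 0.174 in such runs and turned without WT replicate 2. Of the 33 named regions, this was the 1 whose direction turned in an alternative. No paired analysis was possible because the results are descriptions with no test, and the labels do not tie a replicate number across genotypes. A missing peak is known at best to the lowest pileup of its list, 0.102 to 0.128 PPM, and less closely where the local background is raised.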
